A study of Mus musculus with 6 samples.

Results

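The genes of fatty acid synthesis, triglyceride assembly and lipid droplets were followed in MYC-driven mouse liver tumors treated with an inhibitor of the arginine methyltransferase PRMT5. They were chosen by symbol from a list of 36 genes, each of which matched 1 row among the 47643 genes of the deposited count table. Both groups were FVB/N mice with the LAP-tTA and tetO-MYC transgenes. In this system the LAP promoter drives the tetracycline transactivator in hepatocytes and doxycycline holds the MYC transgene off. Doxycycline was supplied at 100 mg/L up to 4 weeks of age, the transgene was then on for 8 weeks, and vehicle or GSK3326595 at 50 mg/kg/day followed for 2 weeks. Bulk RNA sequencing gave 3 vehicle and 3 GSK3326595 libraries, and the comparison asks how the inhibitor alters expression in these tumors. The labels number the replicates without tying each to an animal and give no sex, so the spread that the p-values measure is that between these samples, which may be technical.

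Hepatocytes turn excess carbohydrate into fat. Citrate exported from mitochondria is cleaved to acetyl-CoA, carboxylated to malonyl-CoA and built into palmitate with NADPH as reductant. Palmitate is then elongated and desaturated, esterified to glycerol as triglyceride, and stored in droplets coated by perilipin and CIDE proteins or secreted in lipoproteins. The transcription factors SREBP-1c, which responds to insulin, and ChREBP, which responds to glucose metabolites, drive most of the synthetic enzymes. PPARG is low in normal hepatocytes and rises in fatty liver.

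The libraries held between 25814339 and 33621083 expected counts, estimated reads per gene. Values are given as CPM, counts scaled to a common library size with TMM, which offsets differences in library composition. Hepatocyte transcripts were abundant in all 6 libraries, with Alb, the gene of albumin, between 3157 and 11944 CPM. The summed level of 12 hepatocyte markers was 54127, 66488 and 25673 CPM in vehicle and 41592, 31779.6 and 12670.5 CPM in GSK3326595, with negative log2 differences in 9 of 12 (median -0.72). In bulk samples, fewer cells of a type and less RNA per cell cannot be told apart. GSK3326595 replicate 2 stood apart on the first principal component, at 103 against -50.2 to 9.37 for the other libraries, and it held the highest CPM for 17 of the 36 lipid genes. For many lipid genes the difference without it is given. Genes that turned direction without a single library are listed at the end. The second component (28.9% of the variance) set vehicle replicates 1 and 2 and GSK3326595 replicate 2 (33, 51.3 and 43.1) apart from the other 3 libraries (-25.9, -33.8 and -67.7), across the treatment groups.

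No lipid gene passed edgeR's threshold after adjustment over the 17012 genes tested, where 0.0% of all genes were called in either direction. Of the 36 genes, 34 passed the filter on low counts. Positive log2 differences, meaning higher in GSK3326595, were found for 22 and negative ones for 12 (64.7% positive, against 53.1% of all genes tested; 46.9% of all were negative), and their median was 0.17 against 0.03 for all genes tested. With no filter on low counts, 23 of 36 were positive with a median of 0.19, against 0.08 for all genes then tested. At an unadjusted edgeR p under 0.05, 5 lipid genes were higher, where the background was 5.45% of genes tested, and 1 was lower, where it was 3.81%. In either direction these were 6 of 34 (17.6%) against 9.26%. The 5 were Me1, Mlxipl, Pparg, Acacb and Scd1, and the lower gene was Gpam. DESeq2 called 1 lipid gene higher, Me1, and 0 lower, against 1.09% and 0.588% of all genes (1.68% in either direction). The groups did not overlap for 4 of the 34 genes (11.8%), Me1, Mlxipl, Gpam and Cideb, beside 14.4% of all genes tested (6.72% higher and 7.66% lower).

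These counts moved with single libraries, and so did the share of all genes with an unadjusted edgeR p under 0.05. Without vehicle replicate 1 only Me1 was below it (all genes, 3.4%), and without vehicle replicate 2 Me1 and Pparg were (5.61%). Without vehicle replicate 3 there were 3 higher and 3 lower (10.2% of all genes). Without GSK3326595 replicate 1 there were 11 higher and 1 lower (10.6% of all genes), with Acly, Acss2, Fads1, Fads2, Elovl5, Elovl3 and Thrsp added and Pparg lost. Without GSK3326595 replicate 2 there were 2 higher, Me1 and Mlxipl, and 4 lower, Plin4, Plin5, Pnpla2 and Cidec (1748 of 17401 genes in all), and the median log2 difference was 0.04. Without GSK3326595 replicate 3 there were 7 higher and 2 lower (13.0% of all genes). Only Me1 was below the threshold under each of the 6 omissions.

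**Figure D1:**
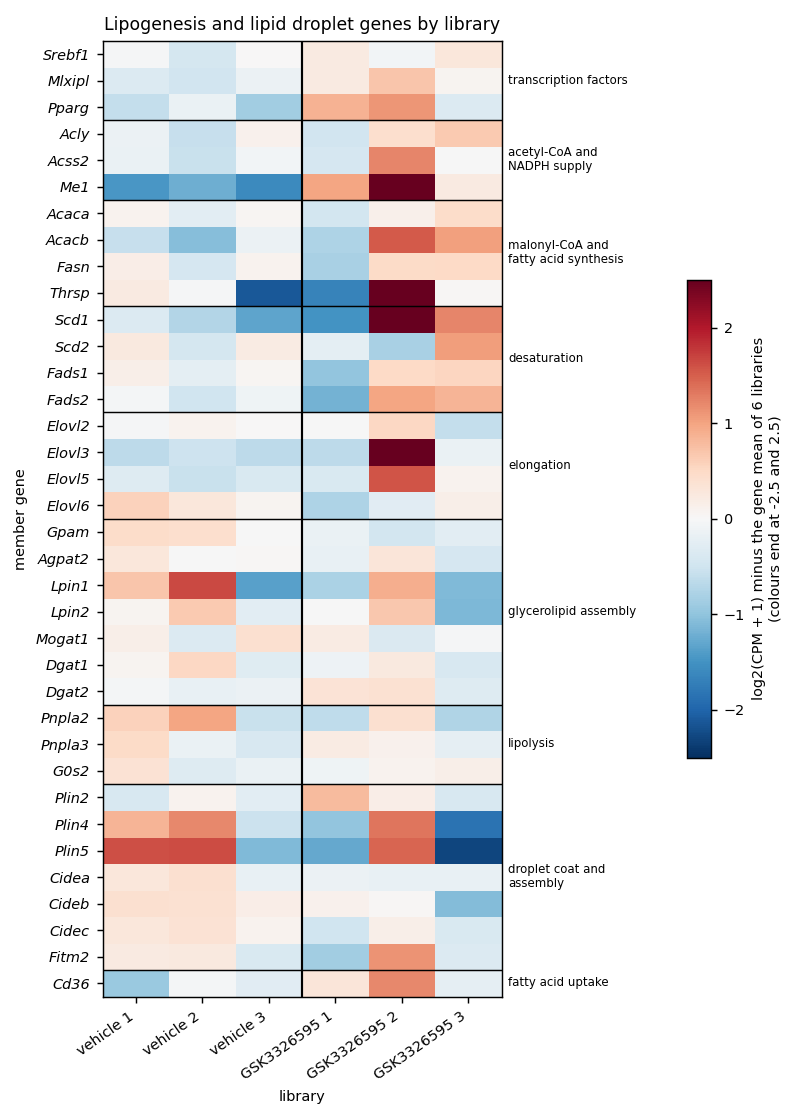
Level of each of the 36 genes (rows, grouped by role) in each library (columns), as log2(CPM + 1) minus the mean of that gene over the 6 libraries. GSK3326595 replicate 2 is the highest library for 17 genes, and Me1 is low in the 3 vehicle libraries.

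Me1, Mlxipl and Gpam combined groups that did not overlap with an unadjusted edgeR p under 0.05, so the bases upstream of their starts are shown. The sequences are from RefSeq on GRCm38.p6, read 5′ to 3′ on the strand of the gene, from 250 bases before the RefSeq start down to the first annotated start. Capitals mark an E-box (CACGTG, bound by USF and MYC family proteins) or a CCAAT box (CCAAT, bound by NF-Y, or its complement on the opposite strand). They lie at chr5:135089640-135089889 on the plus strand for Mlxipl, chr9:86695954-86696164 on the minus strand for Me1 and chr19:55127239-55127488 on the minus strand for Gpam.
Mlxipl: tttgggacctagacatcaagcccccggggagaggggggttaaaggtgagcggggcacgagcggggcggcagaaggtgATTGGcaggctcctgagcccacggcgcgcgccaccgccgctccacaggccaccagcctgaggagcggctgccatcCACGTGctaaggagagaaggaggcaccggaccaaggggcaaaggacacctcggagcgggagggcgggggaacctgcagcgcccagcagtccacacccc
Me1: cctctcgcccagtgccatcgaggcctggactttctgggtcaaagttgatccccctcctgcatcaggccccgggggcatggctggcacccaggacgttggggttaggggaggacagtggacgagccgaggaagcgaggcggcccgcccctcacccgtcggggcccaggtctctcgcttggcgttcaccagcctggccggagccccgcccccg
Gpam: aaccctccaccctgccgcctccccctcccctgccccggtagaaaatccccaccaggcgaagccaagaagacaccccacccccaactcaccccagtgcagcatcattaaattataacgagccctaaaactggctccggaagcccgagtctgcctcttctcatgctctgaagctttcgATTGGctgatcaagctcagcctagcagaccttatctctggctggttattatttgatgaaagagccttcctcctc

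Mlxipl held an E-box starting 98 bases before its RefSeq start and a CCAAT box on the opposite strand, and Gpam a CCAAT box on the opposite strand starting 74 bases before. The Me1 stretch held neither, while the window of a further, downstream Me1 start held a CCAAT box. Both strands were searched in the 250 bases before each start. Of the 36 genes, 29 had a RefSeq promoter, in 41 windows. The E-box was in 7.32% of these windows (Mlxipl, Elovl5 and Lpin2) against 6.02% of all 32851 windows, and CCAAT in 43.9% against 33.8%. TCACNCCAC, a form of the sterol response element bound by SREBP, was in 1 of the 41 windows, at a further start of Mlxipl, against 1.05% of all. The direct repeat bound by PPAR heterodimers, searched as 2 copies of AGGTCA with 1 base between them, was in 0 of the 41 and in 0.0335% of all. The NRF2 core TGACNNNGC was in 7.32% (Acss2, Cideb and Pparg) against 10.2%. The motifs marked in the stretches shown do not overlap one another, and a match describes letters only.

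Among the transcription factors, Srebf1 and Mlxipl were well expressed and Pparg was low. Mlxipl, which encodes ChREBP (ENSMUSG00000005373.13; mm10 chromosome 5, 135089890 to 135138382, plus strand), had 60.8, 55.5 and 70.3 CPM in vehicle and 91.3, 126 and 81.1 CPM in GSK3326595. All 3 GSK3326595 libraries lay above all 3 vehicle libraries. The log2 difference was 0.68 ± 0.22 (SE; edgeR unadjusted p = 0.017, adjusted p = 0.507), and 0.52 without GSK3326595 replicate 2. Pparg (ENSMUSG00000000440.12; chromosome 6, 115360951 to 115490399, plus strand), a nuclear receptor that promotes fat storage, had 5.13, 7.31 and 4.06 CPM in vehicle and 15.9, 19.0 and 6.28 CPM in GSK3326595. Replicate 3 of GSK3326595 lay within the vehicle range and the other two above it (log2 difference 1.32 ± 0.46, edgeR unadjusted p = 0.0248, adjusted p = 0.522). Without GSK3326595 replicate 2 the difference was 1.05 (edgeR unadjusted p = 0.0647). Srebf1, the gene of SREBP-1, had 168, 126 and 172 CPM against 200.2, 162 and 208 CPM. Its groups overlapped and its log2 difference was 0.29 ± 0.20 (edgeR adjusted p = 0.694).

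Pparg is also expressed in macrophages, endothelial cells and adipocytes. Macrophage markers had positive log2 differences in 8 of 10 genes, with summed levels of 565 to 890 CPM in vehicle and 1854, 624 and 748 CPM in the GSK3326595 libraries. Endothelial markers had them in 7 of 10, with sums of 141 to 235 CPM against 161 to 308 CPM. Stellate and fibroblast markers had them in 10 of 10, with sums of 146 to 589.9 CPM against 676 to 834 CPM. T cell markers were positive in all 6 tested of 10 listed, at sums of 4.39 to 6.87 CPM against 13.9 to 31.0 CPM. Of 10 adipocyte markers 3 were tested, 2 of them positive (median 0.56), with sums of 21.5 to 44.4 CPM against 28.9 to 63.0 CPM, mostly from Fabp4, which macrophages and endothelium also express. The defining markers Lep (0 in every library), Adipoq and Plin1 were at or below 0.062 CPM. The part of these other cells in the Pparg result was not tested.

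Me1 had the largest log2 difference of the 34 lipid genes tested. It encodes cytosolic malic enzyme, which makes NADPH for fatty acid synthesis while converting malate to pyruvate (ENSMUSG00000032418.15; chromosome 9, 86581371 to 86695953, minus strand). Its level was 4.08, 4.93 and 3.58 CPM in vehicle and 26.3, 115 and 15.2 CPM in GSK3326595. The lowest GSK3326595 library thus stood above the highest vehicle library, while the GSK3326595 libraries themselves differed widely. The log2 difference was 3.63 ± 0.79 (edgeR unadjusted p = 0.00273, adjusted p = 0.455; DESeq2 adjusted p = 0.000101). Without GSK3326595 replicate 2 it was 2.34, with an edgeR unadjusted p of 0.000327, and without each of the other 5 libraries it was between 3.55 and 4.08. Me1 was 1 of 7 lipid genes with expected counts that were not whole, so a part of its reads was divided with other loci in the authors' counting.

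Acly and Acss2, which make cytosolic acetyl-CoA from citrate and from acetate, overlapped between the groups. Acly had 243, 179.8 and 289.6 CPM in vehicle and 192, 359 and 419 CPM in GSK3326595 (log2 difference 0.45 ± 0.33, edgeR adjusted p = 0.722). Acss2 had 17.1, 12.9 and 18.5 CPM against 14.3, 46.3 and 19.4 CPM (0.72 ± 0.45, edgeR adjusted p = 0.665). For both, GSK3326595 replicate 1 was inside the vehicle range and replicate 2 above it. Without replicate 2 the log2 difference of Acss2 was 0.12.

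**Figure D2:**
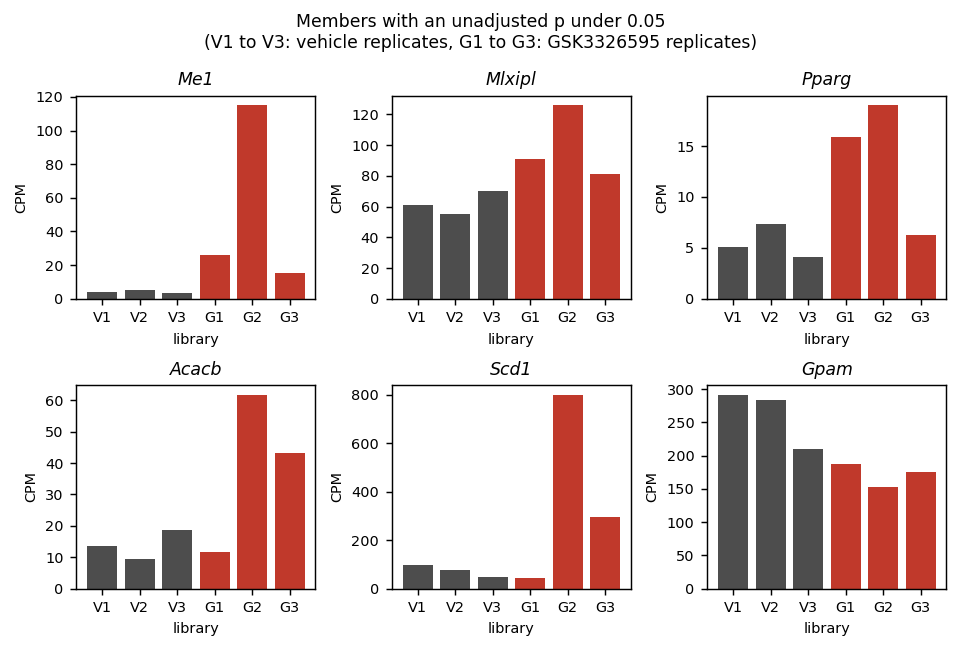
CPM of the 6 genes with an unadjusted edgeR p under 0.05 in each library, as bars from 0 (V1 to V3, vehicle replicates 1 to 3; G1 to G3, GSK3326595 replicates 1 to 3). Me1, Mlxipl and Gpam do not overlap between the groups, and Acacb and Scd1 in GSK3326595 replicate 1 (11.8 and 44.1 CPM) do not exceed the vehicle range.

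The enzymes of malonyl-CoA and palmitate synthesis had positive log2 differences of very different size. Fasn, the fatty acid synthase, was high in every library, at 867, 581 and 819.7 CPM in vehicle and 439, 1084 and 1088 CPM in GSK3326595. Replicate 1 of GSK3326595 was thus the lowest of all 6 and replicates 2 and 3 the highest (log2 difference 0.20 ± 0.38, edgeR adjusted p = 0.924). Acaca, the cytosolic acetyl-CoA carboxylase that feeds synthesis, followed the same order with 332, 261 and 325 CPM against 227, 341 and 430.4 CPM (0.12 ± 0.26, edgeR adjusted p = 0.936). Its mitochondrial counterpart Acacb, whose malonyl-CoA restrains fatty acid oxidation, had 13.5, 9.46 and 18.7 CPM in vehicle and 11.8, 61.7 and 43.2 CPM in GSK3326595. Here, too, replicate 1 stayed among the vehicle values while the other two lay above them (1.48 ± 0.59, edgeR unadjusted p = 0.0405, adjusted p = 0.526). Without GSK3326595 replicate 2 the difference was 1.05 (edgeR unadjusted p = 0.121), and limma-voom gave 1.23 (unadjusted p = 0.109). Per kb of exon, Acacb made up 6.72%, 6.04% and 9.27% of the 2 carboxylases in vehicle and 8.42%, 24.3% and 15.1% in GSK3326595.

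Thrsp, or Spot14, a lipogenic cofactor that responds to thyroid hormone and carbohydrate, rested on 1 library. It had 25.1, 21.1 and 4.18 CPM in vehicle and 6.03, 263 and 21.8 CPM in GSK3326595. Replicate 2 of GSK3326595 exceeded every other library, and the other two lay inside the vehicle range. The log2 difference was 2.53 ± 1.37 (edgeR adjusted p = 0.622) with it and -0.21 without it.

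Of the desaturases, which introduce double bonds, Scd1 varied most between libraries. Scd1 and Scd2 make monounsaturated from saturated fatty acids, Scd1 being the main form of adult mouse liver and Scd2 that of the fetal and neonatal liver. Scd1 had 99.2, 75.1 and 49.4 CPM in vehicle and 44.1, 799 and 295 CPM in GSK3326595. Replicate 1 of GSK3326595 was the lowest library of all and replicates 2 and 3 were the highest (log2 difference 2.35 ± 0.91, edgeR unadjusted p = 0.0383, adjusted p = 0.524). Without replicate 2 the log2 difference was 1.26 (edgeR unadjusted p = 0.146), and limma-voom on all libraries gave 1.61 (unadjusted p = 0.152). Scd2 had 1036, 649 and 1011 CPM against 744, 504 and 1806 CPM, with replicate 2 of GSK3326595 the lowest and replicate 3 the highest (0.18 ± 0.49, edgeR adjusted p = 0.952). Its difference was 0.57 without GSK3326595 replicate 2 and -0.51 without GSK3326595 replicate 3.

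Scd2 was the dominant form in 5 of the 6 libraries. Per kb of exon, Scd1 made up 9.67%, 11.4% and 5.18% of the pair's summed level in vehicle and 6.21%, 63.9% and 15.4% in GSK3326595. The order of the pair was thus turned in GSK3326595 replicate 2 alone. The 2 genes lie 87.6 kb apart on chromosome 19, on opposite strands, and both had expected counts that were not whole in all 6 libraries. How the authors' counting divided shared reads between these near copies was not examined, so their shares are uncertain to that extent.

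Fads1 and Fads2, the delta-5 and delta-6 desaturases of polyunsaturated fatty acids, also lie close together on chromosome 19, 81.1 kb apart. Fads1 had 121, 92.3 and 113 CPM against 54.9, 154 and 159 CPM (log2 difference 0.17 ± 0.40, edgeR adjusted p = 0.940). Fads2 had 62.5, 45.2 and 59.6 CPM against 28.0, 128 and 117 CPM (0.71 ± 0.52, edgeR adjusted p = 0.723), and its difference was 0.44 without GSK3326595 replicate 2. As with Fasn, Acaca and Scd1, GSK3326595 replicate 1 was the lowest of all libraries for both genes and replicates 2 and 3 the highest. Fads2 held 41.7% to 43.5% of the pair's summed level per kb in the vehicle libraries and 42.7% in GSK3326595 replicate 1, against 54.8% and 51.8% in replicates 2 and 3.

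The elongases, which lengthen fatty acids, differed in direction. Elovl6, which takes palmitate to stearate, had 174, 141 and 121 CPM in vehicle and 67.4, 94.8 and 129 CPM in GSK3326595 (log2 difference -0.58 ± 0.28, edgeR adjusted p = 0.570). Elovl5, which acts on polyunsaturated fatty acids, had 54.3, 46.1 and 52.7 CPM against 52.5, 205 and 72.8 CPM (1.11 ± 0.50, edgeR adjusted p = 0.552). Both overlapped, and without GSK3326595 replicate 2 the difference of Elovl5 was 0.35. Elovl2, which makes very long polyunsaturated chains, had 171 to 184 CPM in vehicle and 115 to 251 CPM in GSK3326595 (0.02 ± 0.29, edgeR adjusted p = 0.990). This difference was negative with limma-voom (-0.05) and without GSK3326595 replicate 2 (-0.25).

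Elovl3, an elongase under circadian and male-biased control in mouse liver, did not pass the filter. It had 0, 3 and 0 counts in vehicle and 0, 287 and 11 counts in GSK3326595, which is 8.9 CPM in replicate 2. Male-biased liver genes stood out in the same library, with a summed level of 1105 CPM in GSK3326595 replicate 2 against 81.6 to 179 CPM in the other 5 libraries. They were positive in 10 of 11 tested of 14 listed. Female-biased liver genes summed to 94.1 CPM in GSK3326595 replicate 2, of which Sult2a1 gave 61.9 CPM, against 20.5 to 93.0 CPM elsewhere. Within these sums Cux2 went the other way and was lowest in that library. It gave 64.8, 72.0 and 24.8 CPM in vehicle and 21.4, 2.08 and 14.6 CPM in GSK3326595. The female-biased genes were positive in 5 of 8 tested of 12 listed. Clock genes summed to 571 CPM in GSK3326595 replicate 2 against 321 to 448 CPM elsewhere, and 7 of 14 tested were positive. Single clock genes differed there. Dbp was highest in that library (22.5 against 1.56 to 5.85 CPM) and Cry2 lowest (41.8 against 57.0 to 74.0 CPM). Arntl, at 8.09 CPM, lay within the range of the others (3.79 to 19.7 CPM). The part of any of these lists in the Thrsp, Scd1, Elovl3 and Elovl5 results was not tested.

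**Figure D3:**
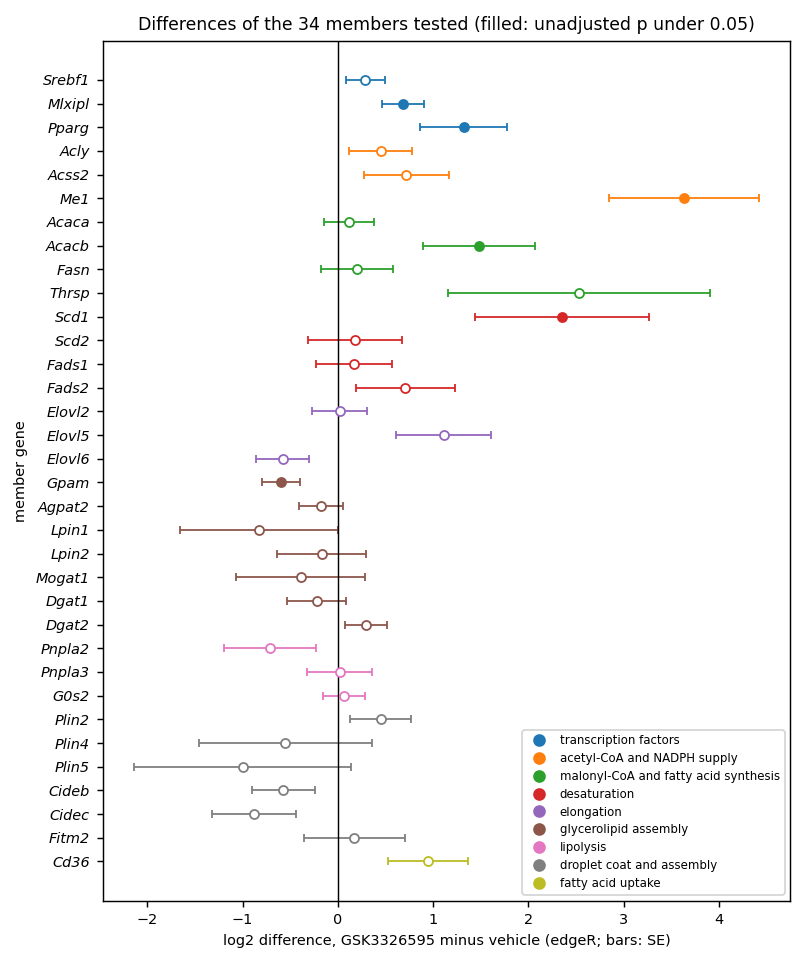
Log2 difference (GSK3326595 minus vehicle, edgeR) of the 34 genes tested, with bars of 1 SE and colours by role. Filled points have an unadjusted p under 0.05; most genes of synthesis lie right of 0 and most genes of glycerolipid assembly and droplet coats left of it.

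The genes that build triglyceride from fatty acids had negative log2 differences in 6 of 7 (median -0.22). The hepatocyte markers lay the same way, in 9 of 12 (median -0.72), and their part was not tested. Gpam, the mitochondrial acyltransferase that starts glycerolipid synthesis (ENSMUSG00000024978.10; chromosome 19, 55067268 to 55127238, minus strand), had 291, 284 and 209.6 CPM in vehicle and 188, 153 and 176 CPM in GSK3326595. Every GSK3326595 library lay below every vehicle library. The log2 difference was -0.60 ± 0.20 (edgeR unadjusted p = 0.0188, adjusted p = 0.521), and between -0.70 and -0.47 without each library. Its unadjusted edgeR p was above the threshold when any of 3 libraries was omitted: 0.082 for vehicle replicate 1, 0.0697 for vehicle replicate 2 and 0.0628 for GSK3326595 replicate 2.

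Dgat2, the enzyme that completes triglyceride from newly made fatty acids, was the 1 gene of this group with a positive value. It had 262, 238 and 244 CPM in vehicle and 344, 353 and 218 CPM in GSK3326595, with replicate 3 below the vehicle range (log2 difference 0.30 ± 0.22, edgeR adjusted p = 0.726). Dgat1, which catalyses the same reaction, had 10.1 to 18.6 CPM against 9.38 to 15.3 CPM (-0.22 ± 0.31). Per kb, Dgat1 made up 3.3% to 7.32% of the pair in all libraries. Agpat2, the second acyltransferase of the pathway, had 90.7 to 112 CPM against 68.1 to 113 CPM (-0.18 ± 0.23). Mogat1, a monoacylglycerol acyltransferase, was near the detection limit, with 7 to 36 counts in every library (-0.39 ± 0.68). None of these genes had an unadjusted edgeR p under 0.05.

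Lpin1 and Lpin2, phosphatidate phosphatases, were more variable. Lpin1, which fasting and glucocorticoids raise in liver, had 92.3, 180.1 and 21.3 CPM in vehicle and 32.0, 107 and 25.8 CPM in GSK3326595 (log2 difference -0.83 ± 0.83, edgeR adjusted p = 0.808), and the difference was -1.72 without GSK3326595 replicate 2. Each group thus held both high and low libraries. Lpin2 had 135, 203 and 107 CPM against 129, 208 and 58.8 CPM (-0.17 ± 0.47, edgeR adjusted p = 0.953). Its difference was -0.62 without GSK3326595 replicate 2 and 0.20 without GSK3326595 replicate 3. Lpin1 held 46.4%, 52.9% and 20.1% of the pair per kb in vehicle and 23.9%, 39.4% and 35.7% in GSK3326595.

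In Lpin1, the 3 libraries on the positive side of the second principal component, vehicle replicates 1 and 2 and GSK3326595 replicate 2, were the highest. The same held for 4 of 7 droplet genes (Plin4, Plin5, Cidec and Fitm2), 1 of 3 lipolysis genes (Pnpla2) and 3 of 7 glycerolipid genes (Lpin1, Lpin2 and Dgat1), or 8 of the 36 lipid genes (22.2%) against 9.98% of all genes tested. This split of the libraries was thus not limited to lipid genes. Plin5, which couples droplets to mitochondria, had 59.4, 60.1 and 8.18 CPM in vehicle and 7.12, 53.6 and 3.03 CPM in GSK3326595. Each group thus held both high and low values (log2 difference -1.0 ± 1.14, edgeR adjusted p = 0.840). Plin4 had 29.5, 38.0 and 10.7 CPM against 7.54, 42.0 and 3.72 CPM (-0.55 ± 0.91, edgeR adjusted p = 0.908). The 2 genes are neighbours on chromosome 17, both on the minus strand and 1797 bases apart. Pnpla2, the adipose triglyceride lipase that opens droplet triglyceride to hydrolysis, had 56.8, 75.9 and 25.4 CPM against 24.2, 50.2 and 22.0 CPM (-0.71 ± 0.48, edgeR adjusted p = 0.689).

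Without GSK3326595 replicate 2, the log2 differences were -3.03 for Plin5, -2.17 for Plin4 and -1.14 for Pnpla2. Their unadjusted edgeR p were then 0.0199, 0.0141 and 0.0493 (adjusted p = 0.459, 0.459 and 0.493). The summed level of hepatocyte markers was also highest in vehicle replicates 1 and 2, but that of GSK3326595 replicate 2 was below that of replicate 1. Its part in the pattern was not tested. G0s2, the inhibitor of the Pnpla2 lipase, did not share the pattern, with 77.9, 48.6 and 54.2 CPM in vehicle and 56.0, 65.0 and 67.2 CPM in GSK3326595 (0.06 ± 0.22, edgeR adjusted p = 0.964). Pnpla3, a paralog of Pnpla2 whose human counterpart carries a fatty liver risk allele, had 3.79 to 7.74 CPM against 4.40 to 6.25 CPM (0.02 ± 0.34, edgeR adjusted p = 0.992).

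**Figure D4:**
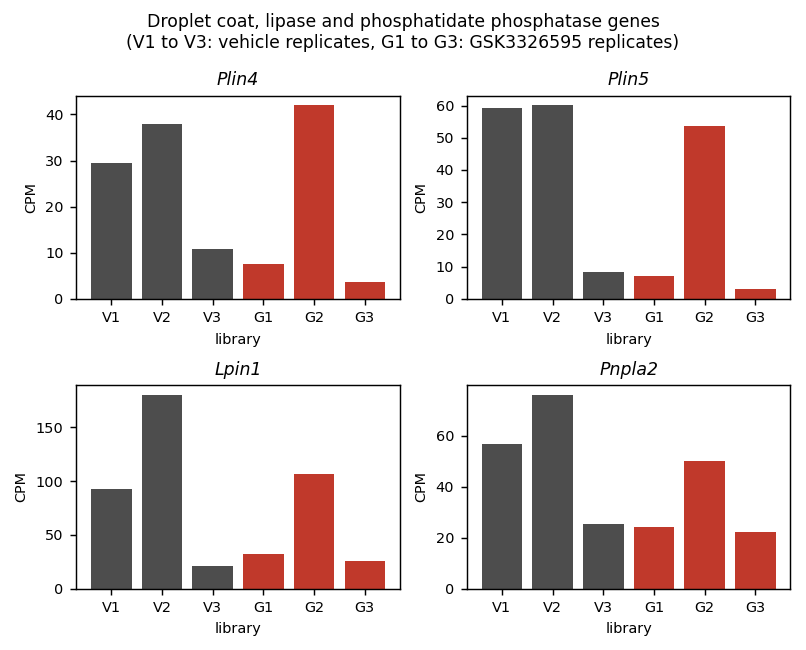
CPM of Plin4, Plin5, Lpin1 and Pnpla2 in each library, as bars from 0 (V1 to V3, vehicle replicates 1 to 3; G1 to G3, GSK3326595 replicates 1 to 3). In all 4 panels V1, V2 and G2 are the 3 highest libraries, so the split crosses the treatment groups.

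Plin2, the main coat protein of hepatocyte droplets, was instead highest in GSK3326595 replicate 1. It had 109, 154 and 119.8 CPM in vehicle and 251, 162 and 109 CPM in GSK3326595 (log2 difference 0.45 ± 0.32, edgeR adjusted p = 0.714). That library also had the highest sum of macrophage markers, and macrophages express Plin2; their part was not tested. Per kb, Plin5 made up 47.8%, 39.7% and 10.3% of the summed Plin5 and Plin2 level in vehicle and 4.55%, 35.8% and 4.47% in GSK3326595.

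The CIDE genes, whose proteins enlarge droplets, had lower mean CPM in GSK3326595 in all 3 cases. Cideb, the form of hepatocytes, had 60.4, 59.5 and 51.1 CPM in vehicle and 48.6, 45.9 and 20.7 CPM in GSK3326595. The groups did not overlap, but the gap was small beside the spread of GSK3326595 (log2 difference -0.57 ± 0.33, edgeR unadjusted p = 0.127, adjusted p = 0.641). Cidec, a form of adipocytes and fatty liver, was low at 1.62, 1.77 and 1.28 CPM against 0.516, 1.36 and 0.649 CPM (-0.88 ± 0.44, edgeR adjusted p = 0.589), and its difference was -1.36 without GSK3326595 replicate 2. Cidea did not pass the filter, with 12, 15 and 0 counts in vehicle and 1, 0 and 0 in GSK3326595. Fitm2, which helps droplets bud from the endoplasmic reticulum, had 31.2, 31.7 and 20.2 CPM against 14.1, 58.6 and 20.6 CPM (0.17 ± 0.53, edgeR adjusted p = 0.960). Its difference was between -0.62 and 0.51 without each library.

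**Figure D5:**
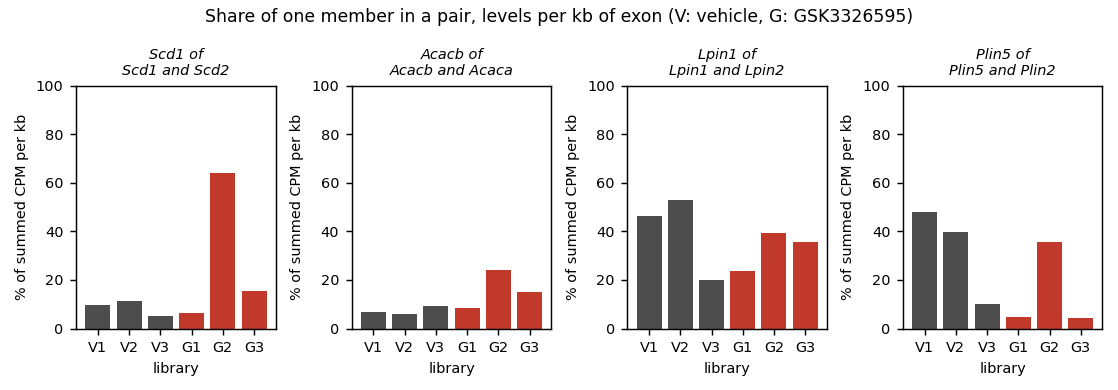
Share of 1 member of a gene pair in the summed CPM per kb of exon, in percent, for each library (V1 to V3, vehicle; G1 to G3, GSK3326595). Scd1 exceeds Scd2 only in G2, at 63.9%, and Plin5 makes up at most 10.3% of the Plin5 and Plin2 level in V3, G1 and G3.

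Cd36, a fatty acid translocase of hepatocytes, macrophages and endothelium, had 16.5, 30.9 and 26.3 CPM in vehicle and 39.7, 75.2 and 27.4 CPM in GSK3326595. Replicates 1 and 2 of GSK3326595 lay above the vehicle range and replicate 3 within it. The log2 difference was 0.95 ± 0.42 (edgeR unadjusted p = 0.0588, adjusted p = 0.550), and 0.49 without GSK3326595 replicate 2. The sums of endothelial markers, given above for Pparg, were likewise higher in GSK3326595 replicates 1 and 2 than in the other 4 libraries, and their part was not tested.

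Per kb of exon, mean levels in vehicle ran from 164 CPM per kb for Scd2, 80.4 for Dgat2, 69.2 for G0s2 and 69.0 for Fasn down to 0.84 for Cidec, 0.438 for Mogat1, 0.267 for Cidea and 0.0172 for Elovl3. In GSK3326595 Scd2 (186), Dgat2 (98.9) and Fasn (79.5) stayed at the head of the list with Scd1 (77.6 against 15.2 in vehicle), a mean carried by replicates 2 and 3.

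Related genes around the lipogenic pathway, from 8 further lists, gave 0 edgeR calls over all genes tested. For comparison, 53.1% of all genes tested had positive log2 differences, and the groups did not overlap for 14.4%. The genes named here were picked for small p. Of the genes that supply carbon and NADPH, 11 of 12 had positive log2 differences (median 0.32). Their summed level was 1153, 1022 and 1066 CPM in vehicle and 1102, 1751 and 1140.1 CPM in GSK3326595. Only replicate 2 of GSK3326595 thus lay above the vehicle range. Pklr, the liver pyruvate kinase and a classic ChREBP target, had 30.9, 23.4 and 35.7 CPM in vehicle and 83.5, 109 and 67.2 CPM in GSK3326595, so that the groups did not overlap. Its log2 difference was 1.53 ± 0.25 (edgeR unadjusted p = 0.000583, adjusted p = 0.455; DESeq2 adjusted p = 0.000117), and between 1.37 and 1.71 without each library. Pklr was the 1 gene of the 12 with an unadjusted edgeR p under 0.05, and Idh1, cytosolic NADP isocitrate dehydrogenase, followed with 0.55 ± 0.26.

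Of 20 regulators of SREBP and lipogenesis 9 were positive and 11 negative, 2 and 3 of them with an unadjusted edgeR p under 0.05. Of all genes tested, 5.45% were higher and 3.81% lower at that threshold. Mid1ip1, a partner of Thrsp that activates acetyl-CoA carboxylase, had 8.95, 6.94 and 11.9 CPM in vehicle and 14.8, 26.8 and 26.9 CPM in GSK3326595 (log2 difference 1.30 ± 0.33, edgeR adjusted p = 0.458; DESeq2 adjusted p = 0.0294). Nr1h3, the gene of LXR alpha, a nuclear receptor that activates Srebf1, had 19.7, 24.3 and 28.4 CPM against 46.4, 77.7 and 31.7 CPM (1.11 ± 0.35, edgeR adjusted p = 0.507). Neither overlapped between the groups. Irs2, an adaptor of insulin signalling, lay the other way with 152, 208 and 94.2 CPM against 83.2, 44.4 and 57.4 CPM (-1.29 ± 0.36, edgeR adjusted p = 0.482), again with no overlap. Trib3 (-1.99 ± 0.70) was the other gene of the 4 smallest p in this list, and its groups overlapped. Insig1 was the remaining lower gene with an unadjusted edgeR p under 0.05. It had 208, 171 and 89.0 CPM against 34.2, 104 and 74.5 CPM (-1.14 ± 0.47, edgeR adjusted p = 0.534), and its groups overlapped too.

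Other droplet proteins were positive in 8 and negative in 5 of 13 tested. Hsd17b13, a hepatocyte droplet enzyme, had 91.9, 117 and 113 CPM in vehicle and 67.1, 74.9 and 38.0 CPM in GSK3326595 (log2 difference -0.84 ± 0.28, edgeR adjusted p = 0.522). Plin3, a coat protein of small droplets, had 160.3, 158 and 118 CPM against 115, 53.1 and 66.8 CPM (-0.89 ± 0.31, edgeR adjusted p = 0.522). Neither overlapped, and both lay below vehicle, as Gpam and Cideb did. Lpcat2, a droplet acyltransferase of inflammatory cells, lay above it (1.5 ± 0.50, edgeR adjusted p = 0.522).

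Lipases and cofactors summed to 727, 853 and 578 CPM in vehicle and 951, 1429 and 472 CPM in GSK3326595. They were positive in 11 of 14 (median 0.31), 3 with an unadjusted edgeR p under 0.05 (5.45% of all genes tested, higher). These were the carboxylesterases Ces1g, Ces1f and Ces1d, all highest in GSK3326595 replicate 2, as in Ces1d with 285 CPM there against 4.05 to 17.8 CPM in the other libraries. Without that library their log2 differences were 1.64, 2.33 and 0.66, against 3.52, 5.06 and 3.67 with it, and the groups did not overlap for Ces1g alone of the 3. They are near copies of one another, so the division of reads among them is uncertain. Genes of fatty acid uptake, binding and activation were positive in 12 of 14 (median 0.29). Their summed level was 2756, 2521 and 2162 CPM in vehicle and 2729.8, 4997 and 1864 CPM in GSK3326595. Replicate 2 of GSK3326595 was thus the highest library and replicate 3 the lowest. In this list Dbi, the acyl-CoA binding protein, differed by 0.75 ± 0.27 and Acsl5, an acyl-CoA synthetase, by 0.66 ± 0.26 (edgeR adjusted p = 0.522 and 0.526). The remaining elongation and desaturation enzymes (4 positive and 6 negative of 10 tested), the remaining glycerolipid enzymes (5 and 8 of 13) and VLDL assembly genes (2 and 7 of 9) held 0 genes with an unadjusted edgeR p under 0.05.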

How the data were processed

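Per the labels' protocols, tumor RNA went into a stranded total RNA library kit. The authors deposited expected counts per gene, which are estimated reads without depth scaling, and 12.3% of them were not whole. The submitters' processing notes name mm10, RSEM, STAR, cutadapt and Picard, without versions. An annotation release or strand setting was not given in the sources used here. Coordinates and exon lengths (all exons of a gene merged) came from GENCODE M21 on mm10, where 47224 of 47643 genes matched by unversioned ID.

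Expected counts were rounded to whole numbers, filtered with filterByExpr (minimum count 10), scaled by TMM and tested, two-sided, by edgeR 4.0.16 (quasi-likelihood, R 4.3.3) over all 6 libraries, with Benjamini-Hochberg adjustment over 17012 genes and a threshold of 0.05. The SE is the absolute log2 difference over the square root of F. DESeq2 1.42.0 and limma-voom (limma 3.58.1) ran on the same genes. The fits were also run on simulated counts, and the outcome is not reported here. The members and gene lists were chosen with earlier results of these data known, so lists are described by counts and medians with no test. All members were described. Those with an unadjusted p under 0.05, groups that did not overlap or a DESeq2 call, and 12 fixed genes, were described library by library. From related lists up to 4 genes of smallest p were described, with Insig1 in addition. Alternatives changed the scaling, the filter, the tool, the libraries or the block, or dropped mitochondrial and rRNA genes.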

Additional observations from a re-analysis of the deposited data

How the results depend on the processing

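Under every edgeR alternative run, 0 genes passed the adjusted threshold, while DESeq2 called 286 of all genes and 1 lipid gene, Me1 (adjusted p = 0.000101), along with Pklr and Mid1ip1 (log2 differences 1.54 and 1.31); limma-voom called 0. The cause was not tested. The 6 lipid genes with an unadjusted edgeR p under 0.05 became 10 of 36 with no filter on low counts, beside 8.15% of all genes. Those added were the newly tested Cidea and Elovl3, and Cd36 and Elovl5, which were tested before. The cause of this change was not tested. Without each library the count was from 1 to 12. With limma-voom it was 4 of 34, without Acacb and Scd1, beside 8.71% of all genes. Over the omissions of single libraries, 20 to 23 lipid genes were positive and their median was between 0.04 and 0.29. By limma-voom 19 of 34 were positive, with a median of 0.08 against -0.01 for all genes. With no scaling beyond total counts the median of all genes was 0.12, and that of the lipid genes 0.26. Of 271 values of the 34 genes under the other 8 alternatives, 6 reversed: with limma-voom Scd2 (-0.00), Elovl2 (-0.05) and Fitm2 (-0.07), and with the replicate block Scd2 (-0.01), Elovl2 (-0.05) and Fitm2 (-0.07). Without each library, 11 of the 34 genes turned direction at least once: Acaca (-0.09 to 0.33), Thrsp (-0.21 to 3.08), Scd2 (-0.51 to 0.57), Fads1 (-0.04 to 0.52), Elovl2 (-0.25 to 0.28), Lpin2 (-0.62 to 0.20), Mogat1 (-0.86 to 0.14), Dgat1 (-0.38 to 0.03), Pnpla3 (-0.14 to 0.37), G0s2 (-0.08 to 0.28) and Fitm2 (-0.62 to 0.51). The other 23 kept theirs.

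Same-numbered replicates of the 2 groups were not treated as pairs, since their deviations from the group means correlated at -0.0728, 0.0718 and 0.323, not all above 0.1. With the replicate block 0 genes were called, 6 lipid genes had an unadjusted p under 0.05 (Acacb and Scd1 lost, Cd36 and Pnpla2 added; 8.33% of all genes), 19 of 34 were positive and the median was 0.08. Lipid genes of few counts (Mogat1, Cidec, Cidea, Elovl3) are limited by depth.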
